A study of Homo sapiens with 6 samples.

Results

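The core spliceosome genes described here encode the Sm and LSm proteins, the SF3A and SF3B proteins and the PRPF proteins. They were chosen by gene symbol: SNRP followed by any letters, SF3A or SF3B, PRPF or LSM followed by a number, with LSM1 left out. The rule found 45 of the 10779 genes in the 2 deposited tables, of which 40 are among the 8121 genes with a translational efficiency, 38 are among the 9570 transcripts with a ribosome occupancy and 33 are in both. LSM8, PRPF3, PRPF38B, SF3A3, SNRPA1, SNRPD2 and SNRPG have a translational efficiency only. LSM2, LSM14A, PRPF8, PRPF31 and PRPF40B have an occupancy only, and SNRPN has neither value.

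The data are from HEK293 cells, a human embryonic kidney line, in a single condition that the labels give as control siRNA. Ribosome profiling reads the mRNA fragments that lie inside ribosomes and so survive nuclease treatment (ribosome-protected fragments, RPFs), and here 3 RPF libraries were paired with 3 total RNA libraries from the same lysates, taken after cycloheximide had been used to hold ribosomes in place. Translational efficiency is the authors' ratio of RPFs to total RNA, given for each of 3 replicates. The occupancy is a number of in-frame RPFs at each codon, divided by the abundance of the mRNA in total RNA (TPM, a length-corrected transcript abundance), with the replicates combined and therefore with no error. There is no second condition, so each gene can only be set against the other genes.

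Introns are removed by small nuclear ribonucleoproteins (snRNPs), each built of an snRNA and proteins. Rings of related proteins hold the snRNAs: the Sm proteins form the ring on U1, U2, U4 and U5, and LSM2 to LSM8 form the ring on U6. SF3A and SF3B are parts of the U2 snRNP, which recognizes the branch point, and several PRPF proteins belong to the U4/U6.U5 tri-snRNP that joins later. The Sm rings are put together in the cytoplasm on newly exported snRNA by the SMN complex. Several of these proteins end in low-complexity tails: SmB, the C protein of U1, SF3A2 and SF3B4 in proline-rich stretches, and SmD1, SmD3 and LSM4 in repeats of glycine and arginine, which are methylated.

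The coding sequences of such tails are shown first, because the largest ratios of occupancy between the start and the end of a CDS were found in mRNAs with such tails. Each line is a 30-nt window of 10 codons within the CDS, 5′ to 3′ on the coding strand, and was the window of the last 75 codons that holds the most proline (CCN) and glycine (GGN) codons, which are in capitals. The sequences are from GENCODE 44 lifted to GRCh37, the assembly also named hg19. The first 3 come from mRNAs with proline-rich ends, the next from LSM4, and the last pair from SmD1 and SmD3, whose ends differed in occupancy.
SNRPB: CCACCTGGCcgtGGGGGTCCTCCCCCACCT
SF3B4: GGCatgCCCCCCcgaGGGCCTCCAttcGGA
SNRPC: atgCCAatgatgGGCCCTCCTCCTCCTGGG
LSM4: GGTGGCcggGGCcgaGGTGGGatcCCGGGC
SNRPD1: GGAcgtGGCcgtGGCagaGGAagaGGGGGT
SNRPD3: agaGGAagaGGAcgtGGAatgGGAcgtGGA

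The windows lie in coding exons. That of SNRPB is codons 169 to 178 in exon 5 (chr20:2443760-2443789, minus strand), that of SF3B4 codons 350 to 359 in exon 5 (chr1:149895743-149895772, minus strand) and that of SNRPC codons 103 to 112 in exon 5 (chr6:34738124-34738153, plus strand). That of LSM4 is codons 99 to 108 in exon 4 (chr19:18418328-18418357, minus strand). Those of SNRPD1 (codons 107 to 116, chr18:19209058-19209087) and SNRPD3 (codons 110 to 119, chr22:24967892-24967921) both lie in exon 4 on the plus strand.

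Most core spliceosome mRNAs had a high translational efficiency. The median over the 40 genes was 1.935, against 0.385 over all genes, and in the single replicates it was 1.936, 1.911 and 1.968. On the scale of log2(value + 0.01) the median of the 40 genes lay 2.301 above the median of all values. By limma with Benjamini-Hochberg adjustment over all 8121 genes, 36 of the 40 lay above that median and 2 below. Replicates differ little, so that test calls 89.3% of all genes (44.7% above and 44.6% below), and a test against a 2-fold difference (limma treat) separates genes better. By that test 28 of the 40 (70%) lay more than 2-fold above the median and 1 (2.5%) more than 2-fold below, where 23.3% and 18.2% of all genes did. Of the 40 genes, 22 lay above the 90th percentile of all genes. The labels do not say whether the replicates are separate cultures, so these p-values measure the spread between these samples, which may be technical.

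**Figure D1:**
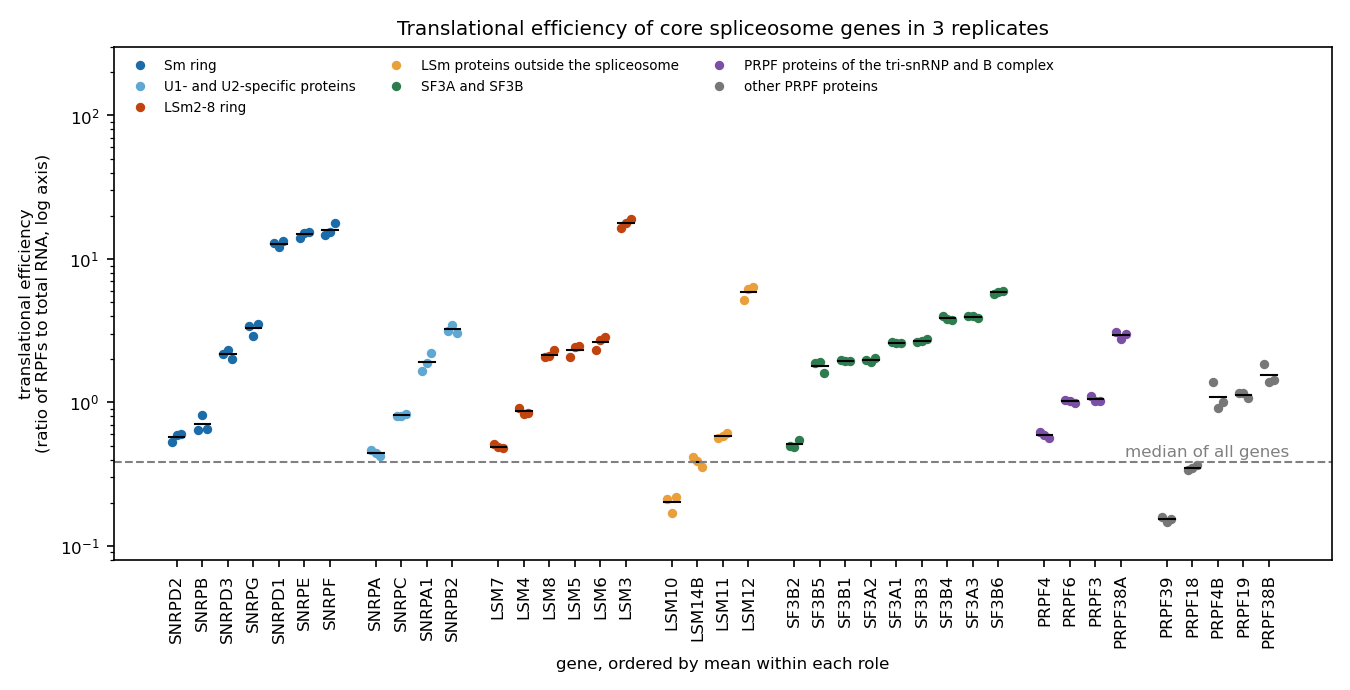
Translational efficiency of core spliceosome genes (vertical axis, ratio of RPFs to total RNA, log scale), grouped by role on the horizontal axis. Points are the 3 replicates from left to right, black bars their mean and the dashed line the median of all genes. Values run from PRPF39 at 0.153 to LSM3 at 17.7, and 3 Sm genes and LSM3 stand above all others.

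All 7 measured genes of the Sm ring lay above the median, 5 of them by more than 2-fold, with a median log2 difference of 3.06. SNRPF (SmF) had values of 14.7, 15.4 and 17.8 in replicates 1 to 3. SNRPE (SmE) had 13.9, 15.2 and 15.4. SNRPD1 (SmD1) had 12.9, 12.2 and 13.2. The replicates of SNRPF and SNRPE overlapped, and those of SNRPD1 lay below both. They stood at percentiles 99.4, 99.3 and 99.2 of all genes and at 40.5-, 37.7- and 32.4-fold of the median (adjusted p by limma treat of 2.05e-06, 1.54e-06 and 1.54e-06).

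The other Sm genes were far lower. SNRPG (SmG) had 3.40, 2.92 and 3.53, and SNRPD3 (SmD3) had 2.18, 2.30 and 1.99. SNRPB (SmB) had 0.641, 0.814 and 0.652, and SNRPD2 (SmD2) had 0.529, 0.595 and 0.599. The last pair did not pass the 2-fold test, though both lay above the median (adjusted p by limma of 0.000341 and 0.000415). None of these 4 genes overlapped with another, so proteins that enter the ring in equal number came from mRNAs with means between 0.574 ± 0.039 and 16.0 ± 1.6 (SD, n = 3).

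The proteins that define U1 and U2 showed the same kind of range. SNRPB2, the B″ protein of U2, had 3.14, 3.48 and 3.06 and SNRPA1, its partner on U2, had 1.67, 1.87 and 2.21, both over 2-fold above the median (adjusted p by limma treat of 6.48e-06 and 0.00011). SNRPC, which helps U1 to bind the 5′ splice site, had 0.808, 0.802 and 0.827, and its 2.09-fold of the median did not pass the 2-fold test (adjusted p by limma treat of 0.26). SNRPA, the A protein of U1, had 0.467, 0.444 and 0.424. SNRPB2 and SNRPA1 thus lay above SNRPC and SNRPA in every replicate. SNRPA and SNRPB2 are close relatives, and their log2 difference, SNRPA minus SNRPB2, was -2.86 ± 0.11 (SD, n = 3). The call of SNRPA above the median (adjusted p by limma of 0.0146) was lost without replicate 1 (0.066) and without replicate 2 (0.0612).

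Of the ring on U6, all 6 measured genes lay above the median and 5 by more than 2-fold, with a median log2 difference of 2.51. LSM3 was the highest of all core spliceosome genes, with 16.3, 17.8 and 19.0 (45.0-fold of the median, adjusted p by limma treat of 1.54e-06). LSM6 had 2.30, 2.74 and 2.86, LSM5 had 2.06, 2.45 and 2.46, and LSM8, the subunit that tells this ring from the cytoplasmic one, had 2.07, 2.10 and 2.31. The replicates of these last 3 genes overlapped. LSM4 had 0.920, 0.837 and 0.841 and passed the 2-fold test narrowly (adjusted p by limma treat of 0.0473). Without any 1 of the replicates it did not pass (0.0918 to 0.186). LSM7 was lowest, with 0.510, 0.486 and 0.480.

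LSm proteins that are not part of the spliceosome were mixed. LSM12 had 5.18, 6.18 and 6.36 and was the only one of the 4 measured to pass the 2-fold test (adjusted p by limma treat of 4.95e-06). LSM11, a subunit of the U7 snRNP that processes histone pre-mRNA, had a mean of 0.588 ± 0.021, while its U7 partner LSM10 had 0.201 ± 0.026 (SD, n = 3) and lay below the median (adjusted p by limma of 0.000254). LSM14B, related to the decapping and repression factor LSM14A, had 0.415, 0.392 and 0.353, around the median (adjusted p by limma of 0.873).

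All 9 SF3A and SF3B genes lay above the median and 8 by more than 2-fold, with a median log2 difference of 2.73. SF3B6 (p14), which contacts the branch point adenosine, was highest with 5.66, 5.91 and 5.94. SF3A3 had 3.9985, 4.0074 and 3.89, and SF3B4 had 4.03, 3.82 and 3.74. SF3B3 had a mean of 2.70 ± 0.08 and SF3A1 of 2.60 ± 0.02 (SD, n = 3). SF3A2 (1.98 ± 0.07), SF3B1 (1.95 ± 0.03), the large subunit that is mutated in some leukaemias and melanomas, and SF3B5 (1.80 ± 0.16) were close together (SD, n = 3). SF3A2 overlapped with the other two in its replicates. The exception in the 2-fold test was SF3B2, which binds SF3B4 directly, with 0.496, 0.492 and 0.548. Replicates of SF3A1 had the smallest spread of the 40 genes (SD of 0.011 on the log2 scale).

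The PRPF proteins were lower. PRPF38A, of the B complex, had 3.11, 2.78 and 2.99. PRPF3 and PRPF6 of the tri-snRNP had means of 1.05 ± 0.05 and 1.02 ± 0.02 (SD, n = 3), with overlapping replicates. PRPF4, which binds PRPF3, had 0.626, 0.588 and 0.570 and did not pass the 2-fold test that the other 3 passed. Among other PRPF genes, PRPF38B had 1.86, 1.38 and 1.44, and PRPF38A exceeded it by 0.94 ± 0.17 on the log2 scale (SD, n = 3). PRPF19, the ubiquitin ligase of the complex named after it, had 1.17, 1.16 and 1.07, and the kinase PRPF4B had 1.38, 0.908 and 1.00, with the widest spread of the 40 genes (SD of 0.314 on the log2 scale). PRPF18, a second-step factor, had 0.338, 0.350 and 0.365 (adjusted p by limma of 0.0686). PRPF39, another U1-linked protein, was lowest of the 40, with 0.159, 0.1465 and 0.155, and the only one more than 2-fold below the median (adjusted p by limma treat of 0.00554).

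Other splicing proteins, listed by role, moved less far from the median than the 40 genes, whose median log2 difference was 2.301. In the 21 of the 40 that share under 5% of their CDS sequence with other genes, described below, it was 1.387. The lists were not split in this way. Of 15 measured snRNP assembly factors 10 lay above and 5 below, 7 and 1 by more than 2-fold, with a median log2 difference of 1.145. They ran from SNUPN, the import adaptor of snRNPs (0.152 ± 0.026), to PHAX, the export adaptor of snRNA (2.26 ± 0.07). Of 24 other snRNP-bound proteins 14 lay above and 9 below, 7 and 2 by more than 2-fold, with a median of 0.573, from SNRNP25 (0.0825 ± 0.0037) to PHF5A (2.58 ± 0.07), a subunit of SF3B that the symbol rule does not take. Of 26 factors of the PRPF19 complex, the activated (Bact) spliceosome and the catalytic steps 20 lay above and 4 below, 11 and 1 by more than 2-fold. Their median log2 difference was 0.966, and they ran from BUD13 (0.155 ± 0.013) to BCAS2 (4.87 ± 0.36). Errors are SD with n = 3.

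Many of these small genes have processed copies elsewhere in the genome, and reads from such sequence cannot be placed with certainty. The share of a gene's 30-nt CDS stretches that also occur in a transcript of another gene was 100% for SNRPD3 and LSM12, 94.1% for SNRPG, 91.6% for SNRPE, 76.2% for SNRPA1 and 60.1% for SNRPD1. It was 40.1% for SNRPF, 35.6% for SNRPB2, 35.4% for LSM3, 29.5% for SNRPC and 0% for SNRPA. Of the 10 genes with the highest translational efficiency, 8 shared over 20%. The 6 genes that shared 50% or more all lay more than 2-fold above the median, with a median log2 difference of 3.484, and over all 827 such genes it was 0.5745. The 13 genes between 5% and 50% all lay above the median, 10 by more than 2-fold. In 21 core spliceosome genes the share was under 5%, and of these 17 lay above and 2 below, 12 and 1 by more than 2-fold, with a median log2 difference of 1.387 against -0.12 over all 5792 such genes. Genes that shared none had means from 0.153 (PRPF39) to 2.70 (SF3B3). The highest of them were SF3A1, SF3B1, SF3B3, SF3B5 and LSM8, with means between 1.80 and 2.70. Others were low, such as LSM10 (0.201), PRPF18 (0.351) and SNRPA (0.445). The Spearman coefficient between translational efficiency and the shared share was 0.693 over 33 core spliceosome genes and 0.147 over 6892 genes, as descriptions over genes that share their libraries. How far shared sequence sets the high ratios was not tested.

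**Figure D2:**
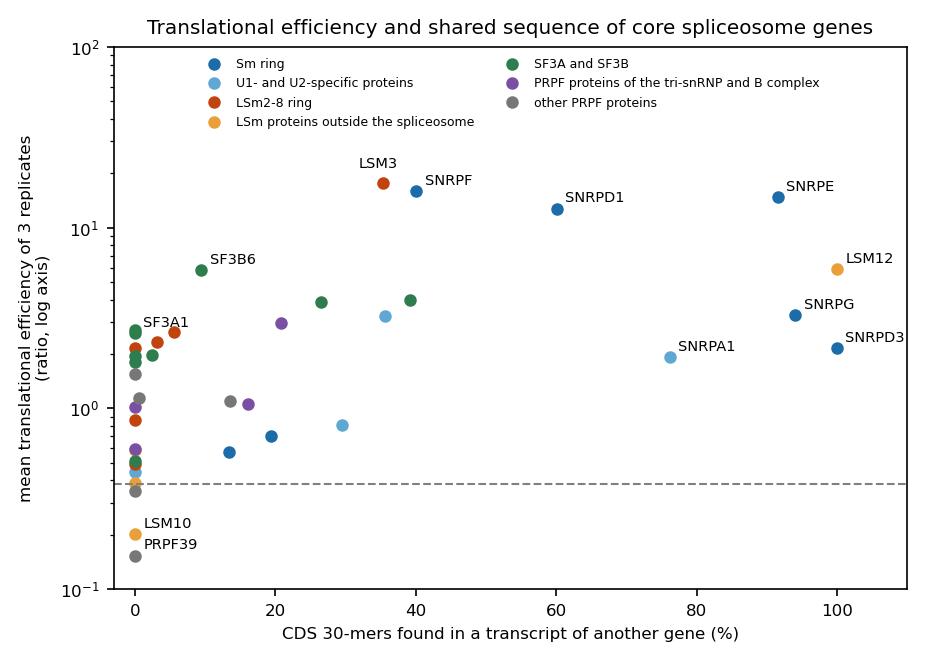
Mean translational efficiency of core spliceosome genes (vertical axis, ratio, log scale, mean of 3 replicates) against the percentage of CDS 30-mers found in a transcript of another gene. The dashed line is the median of all genes. Genes at 0% run from PRPF39 at 0.153 to SF3B3 at 2.70, and the 4 highest genes share between 35.4% and 91.6%.

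Occupancy per codon, which is per length and per TPM, was also high for this group. The median over 38 core spliceosome mRNAs was 0.078 RPFs per codon per TPM, against 0.0451 over all 9570 transcripts, and 32 of the 38 (84.2%) lay above the latter. LSM5 (0.514, from a CDS of 62 codons), SNRPE (0.414), SNRPD3 (0.331), SNRPD1 (0.315), SNRPF (0.308) and SF3B4 (0.29) were highest. LSM10 (0.00935) and PRPF40B (0.0178) were lowest. LSM14A had 0.0767 and LSM14B 0.0609. The longest CDS, that of PRPF8 at the catalytic centre of the spliceosome (2335 codons), had 0.114, PRPF31 had 0.0335 and LSM2 had 0.0909.

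Both measures placed genes in a similar order (Spearman coefficient of 0.75 over 33 core spliceosome genes and 0.688 over 6912 genes, both computed from the same libraries). LSM3 was at percentile 99.5 of translational efficiency and 75.7 of occupancy, and LSM12 at 98.03 and 69.9. LSM5 was the other way about, at 93.2 and 99.1. The occupancy of LSM5 is for a transcript with a CDS of only 62 codons. In the matched transcript, 41 of 95 nt of the 5′UTR are CDS in another transcript of the gene. The transcript behind its translational efficiency is not known. The occupancy values thus do not place LSM3 beside SNRPE, SNRPF and SNRPD1.

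**Figure D3:**
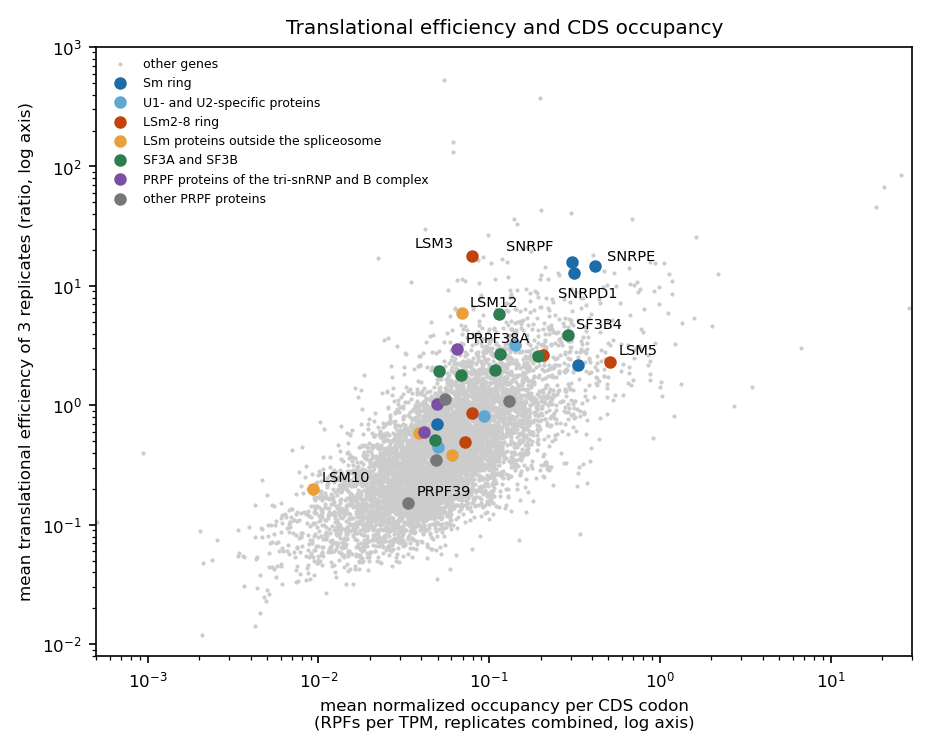
Mean translational efficiency (vertical axis, ratio, mean of 3 replicates) against mean occupancy per CDS codon (horizontal axis, RPFs per TPM, replicates combined), both on log scales. Grey points are other genes and coloured points core spliceosome genes in both tables. SNRPE, SNRPF and SNRPD1 are high on both axes, and LSM3 and LSM12 are high on the vertical axis only.

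The occupancy could be turned back into whole reads for 9401 transcripts (98.2%) and 34 of the 38, all but LSM5, LSM7, SNRPD1 and SNRPF. In-frame CDS reads ran from 171 (PRPF40B) to 86803 (PRPF8) with a median of 10383. Values of PRPF40B, LSM10 (270 reads) and LSM11 (715 reads) rest on few reads.

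Along the CDS, the mRNAs with proline-rich tails carried most of their ribosomes in the first part. The ratio of mean occupancy in the first 75 codons to that in the last 75, computed for the 32 mRNAs with over 100 codons, had a median of 1.26, against 0.964 over 9310 transcripts. In the shorter CDS, such as those of LSM4 (125 codons), SNRPD1 (119) and SNRPD3 (126), the windows overlap and some codons count in both. The ratio was 52.7 for SF3A2, 18.7 for SNRPB, 17.4 for SF3B4, 13.6 for LSM4 and 10.4 for SNRPC. These 5 of 32 (15.6%) were the ones with a ratio of 5 or more, which 407 of all transcripts (4.37%) reached. SF3A2 had 4668 reads at its start window and 96 at its end window. Its start window includes codon 44, which alone had 1884 reads. The medians over codons in SF3A2 were 0.0469 in the first 75 and 0 in the last 75. SNRPB had 18531 and 1019, SF3B4 4159 and 234, LSM4 8445 and 619, and SNRPC 13331 and 1255. Each of these ends held reads, at a low level. The codon that parts the CDS occupancy into equal amounts lay 13.4% along the CDS of SF3A2, 17.6% along LSM4, 21.4% along SNRPC, 23.4% along SNRPB and 24.8% along SF3B4, where the median was 45.0% over the 38 mRNAs and 49.6% over all transcripts. In SNRPB, 65.8% of the 30-nt stretches at the start window and 0% at the end window are shared with another gene. The shares were 29.6% and 2.55% in SF3B4 and, the other way about, 23.0% and 44.9% in SNRPC, and their part in the ratios was not tested.

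**Figure D4:**
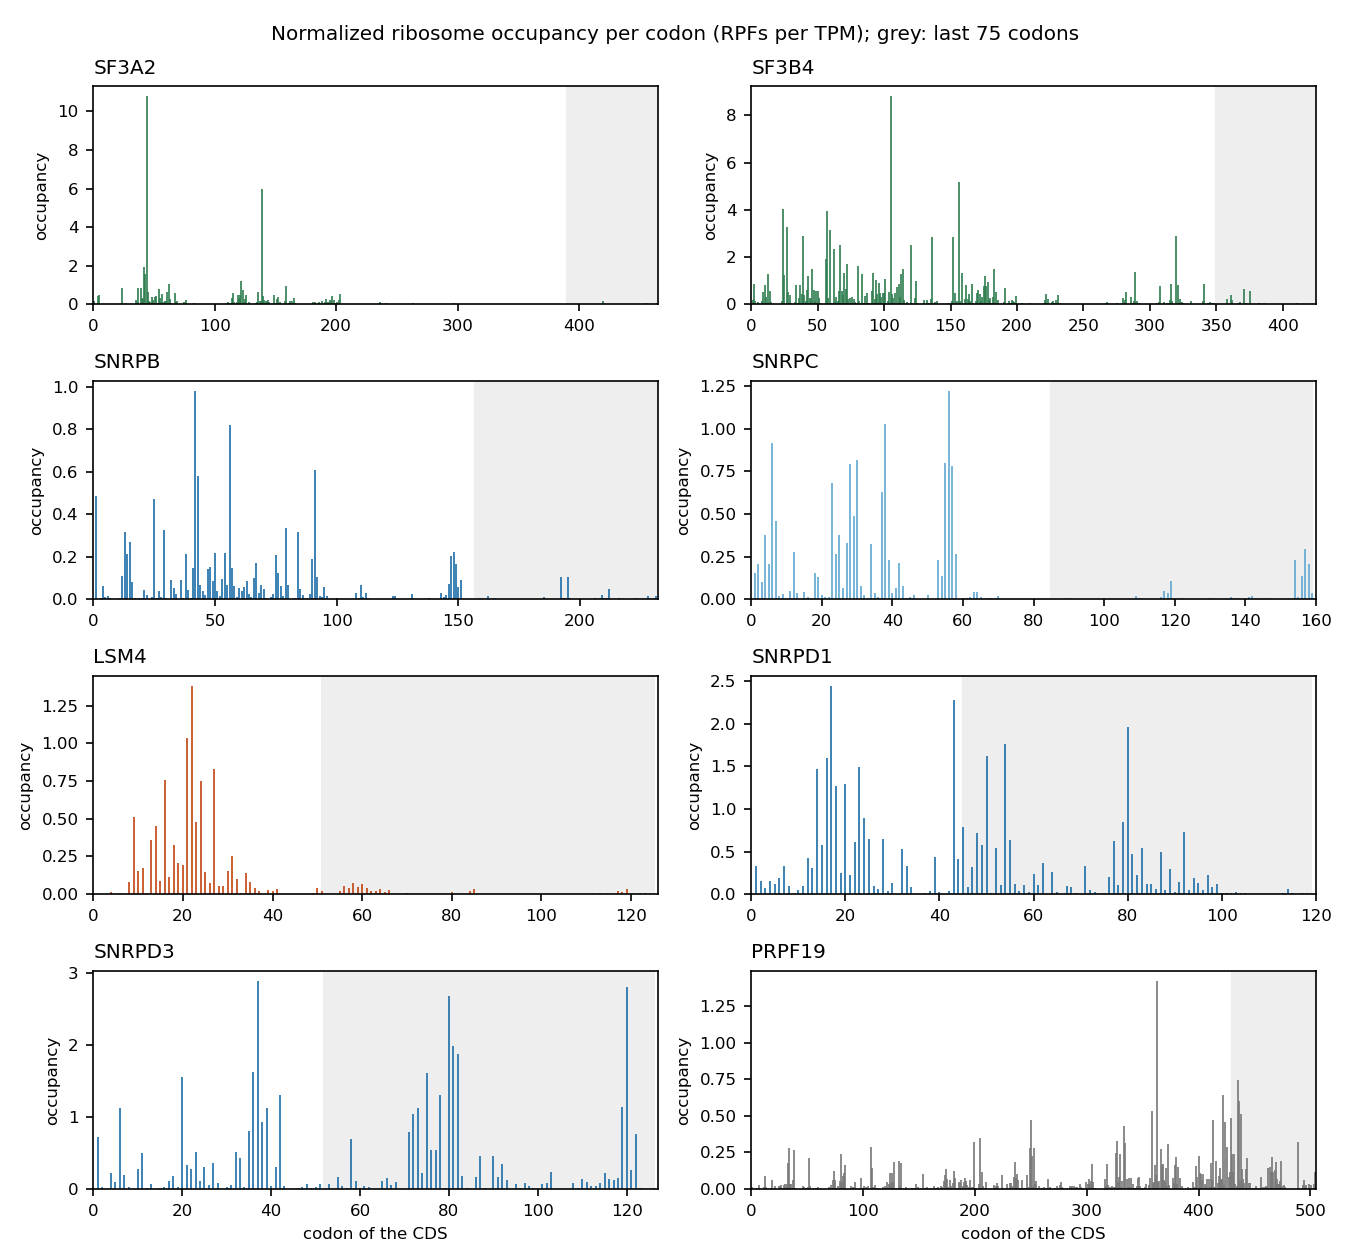
Occupancy (vertical axis, RPFs per TPM, replicates combined) at each codon of the CDS (horizontal axis) of 8 core spliceosome mRNAs, with the last 75 codons shaded. Occupancy of SF3A2, SF3B4, SNRPB, SNRPC and LSM4 is concentrated ahead of the shaded end, SNRPD3 has high codons close to its end, and PRPF19 is shown as an mRNA with a ratio under 1 (0.349).

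Proline and glycine codons took up 60% of the last 75 codons in SF3B4, 58.7% in SNRPB and 52% in SF3A2 and SNRPC. A share of 50% or more was reached by 4 of 31 core spliceosome mRNAs and by 16 of 8898 transcripts (0.18%). All 4 had a ratio of 5 or more. Of the 12 other transcripts with such a share 5 did, and their median ratio was 4.57, against 0.965 in the 8882 transcripts below 50%. LSM4 had 32%, most of it glycine (26.7%), with a ratio of 13.6. LSM14A had 34.7%, most of it glycine (30.7%), with a ratio of only 2.43. SNRPD1 had 22.7% with a ratio of 1.71. The limits of 5 and 50% were chosen after the values of the core spliceosome mRNAs were seen. GC content of the last 75 codons, 67.1% in SNRPB, 70.2% in SF3A2, 68% in SF3B4, 63.1% in SNRPC and 67.6% in LSM4, was above the median of all transcripts (51.1%), and its part in the low occupancy was not tested. Over all 8845 transcripts with both values the Spearman coefficient between the ratio and the proline and glycine share was 0.215, and over 30 core spliceosome mRNAs it was 0.571.

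The windows printed above had mean occupancies of 0.000123 in LSM4, 0.00051 in SNRPB, 0.00298 in SNRPC and 0.0268 in SF3B4. All were under the CDS mean of their own mRNA, which was 0.0792, 0.0495, 0.0933 and 0.29 in the same order. These mRNAs were shown for their low ends, so the choice made this likely. The means of their last 75 codons were 0.00946, 0.00562, 0.0174 and 0.0362 in that order. Each window was also under that of its own mRNA. Among glycine and arginine repeats, the SNRPD3 window differed from the others. The matching window was low in LSM14A (0.000742 against a CDS mean of 0.0767) and LSM14B (0.00299 against 0.0609), as it was in LSM4. In SNRPD1 the window had 0.0101 against a CDS mean of 0.315, and in SNRPD3 it had 0.219 against 0.331. Codon 119 gave 52.2% of the sum in the SNRPD3 window and codon 114 gave 58.4% in the SNRPD1 window, and the other 9 codons had means of 0.116 and 0.00468. The entire CDS of SNRPD3 is shared with another annotated gene.

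**Figure D5:**
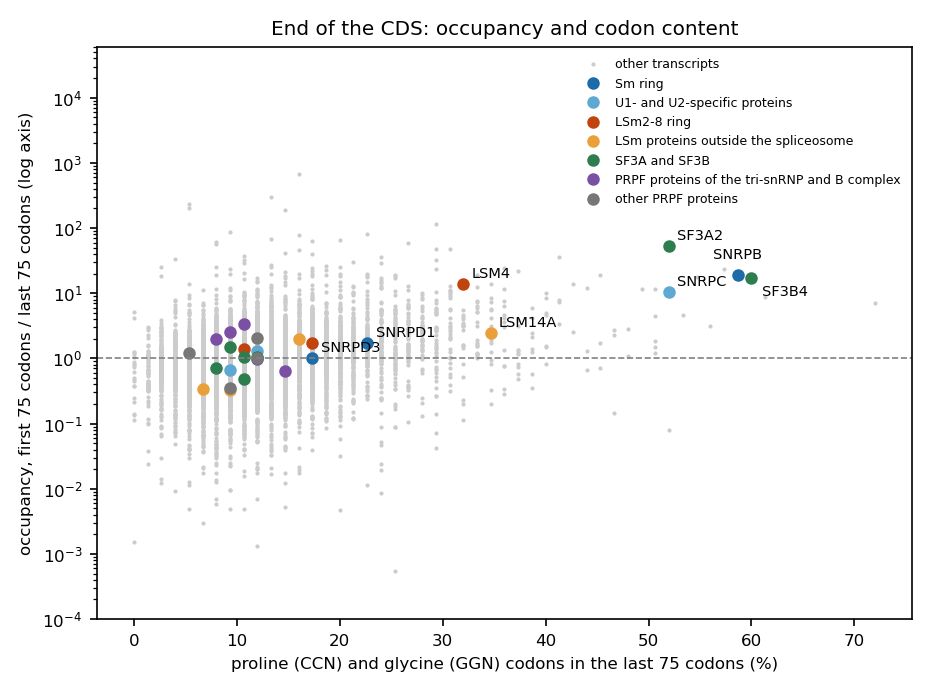
Ratio of mean occupancy in the first 75 codons to that in the last 75 (vertical axis, log scale) against the percentage of proline and glycine codons in the last 75, with transcripts at a ratio of 0 left out. Grey points are other transcripts and coloured points core spliceosome mRNAs. SF3A2, SNRPB, SF3B4 and SNRPC stand at 52% to 60% with ratios from 10.4 to 52.7.

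Small ratios included those of PRPF40B (0) and LSM11 (0.327). PRPF40B had 0 reads in the start window and 31 of its 171 reads in the end window. LSM11 had 66 and 189. Proline and glycine codons took up 56% of the first 75 codons in PRPF40B and 26.7% in LSM11. GC content there was 67.6% and 74.7%. The part of either in the low occupancy was not tested.

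Single codons held a large share of the occupancy in some mRNAs. The highest codon took a median of 6.89% of the CDS total over the 38 mRNAs and 4.95% over all transcripts. This share depends on CDS length, and the median CDS had 327 codons in the 38 and 447 over all transcripts. The largest shares were 21.5% in SF3A2 (codon 44 of 464, 1884 reads), 16.5% in LSM7 (codon 35 of 103) and 15.6% in SF3B5 (codon 40 of 86, 1444 reads). The 9 codons around each are shown, with the highest codon in capitals, a proline, a glycine and a tyrosine codon.
SF3A2: atcaacaaggacCCGtacttcatgaag
LSM7: cgcgaagccagtGGAatcctgaagggc
SF3B5: caccgcgactcgTACtgctcctacatg
The window of SF3A2 (chr19:2243535-2244560, plus strand) runs across the junction of exons 2 and 3, as does that of LSM7 (chr19:2324176-2328392, minus strand), and that of SF3B5 lies in its single exon (chr6:144416503-144416529, minus strand).

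Upstream of the start codon, in-frame occupancy was highest in LSM5 (0.0981 per codon), SNRPF (0.057) and SNRPD1 (0.0266), where the median of the 38 was 0.00235 and that of all transcripts 0.00143. As a percentage of the CDS mean these were 19.1%, 18.5% and 8.45%, and on that scale the median of the 38 (2.26%) was under that of all transcripts (2.84%). Over the 17 codons just before the AUG SNRPF had 0.131. In the matched GENCODE transcript of LSM5, 41 of 95 nt of the 5′UTR are CDS in another transcript of the gene, and for SNRPF and SNRPD1 none are. Reads were not recovered for these 3 mRNAs, so the depth behind their values is unknown. A purine stood at position -3 of the start codon in 36 of 37 core spliceosome mRNAs (97.3%, all but SNRPA) and in 85.5% of all transcripts, and a G at +4 in 48.6% and 53.2%.

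Downstream of the stop codon occupancy was close to 0. PRPF4B (0.00085 per codon, 127 reads), LSM6 (0.000365, 17 reads) and SF3B4 (0.000345, 3 reads) were highest, and in 6 of the 38 mRNAs (15.8%) and 42.9% of all transcripts the 3′UTR had no in-frame read. The median was 3.73e-05 over the 38 and 1.30e-05 over all. Depth differed, with a median of 10383 in-frame CDS reads in 34 of the 38 and 1793 over 9401 transcripts. Its part in these numbers was not tested.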

How the data were processed

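RPF and total RNA libraries came from HEK293 cells (3 each). The authors trimmed adapters (Cutadapt), collapsed PCR duplicates (cd-hit-dup), placed RPFs of 28 to 30 nt on hg19 transcripts (bowtie) and counted total RNA with HTseq-count. The submitters' processing notes name cutadapt 1.16, Bowtie 1.1.2, TopHat2 2.1.1 and HTSeq 0.9.1, and the methods name Hisat2 for total RNA. The deposited translational efficiency is a linear ratio for each replicate, and neither its formula nor any length correction was stated (not given in the sources used here). Deposited occupancy is a signal, library-size-normalized RPFs per codon over the TPM of the mRNA, in frame, for the most abundant transcript of a gene, replicates combined. For 31 transcripts, 1 of them described here (PRPF8), a list broken over lines was rejoined, and a codon damaged at the break was set to missing.

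The ratios, as log2(value + 0.01), were tested by limma 3.58.1 (R 4.3.3) after subtracting the median of all values, two-sided, with Benjamini-Hochberg adjustment over all 8121 genes at an FDR of 0.05 and no filter. The 2-fold test used treat with a log2 fold of 1. Tested on simulated data of 8121 genes for this comparison, with 200 moved by 1 on the log2 scale, 85.5% of the moved genes and 9 others were called, and with 200 moved by 2, 95% and 7 others. The 2-fold test called 0% and 85% of the moved genes. RPF and total RNA of 1 number share a lysate and the ratio is taken within it, so pairing is part of the values. Replicates correlated with Pearson coefficients of 0.987, 0.988 and 0.989 over genes.

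Reads were recovered from whole multiples of 3 steps per transcript (tolerance 1e-08, up to 60 steps, steps within a ratio of 3), a limit on the ratio being added after some ambiguous results. Values above 60 times the smallest step were scaled by the reads per value of the decoded codons. Of 300 simulated transcripts 297 were solved, with a largest error of 1.15%. The depth of the simulated transcripts was not matched to the mRNAs described here. Sequence, coordinates and shared 30-mers come from GENCODE 44 on GRCh37, matched by symbol and CDS length for 9137 transcripts (95.5%) and 37 of the 38. Python 3.11.15, numpy 2.4.6 and pandas 2.3.3 were used.

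The genes, roles and lists were chosen with earlier results of these data known. Named are all genes past the 2-fold test, the extremes of each role, list and occupancy measure (3 each), and related pairs. The measures of tail codons and start context, and the ratio only for over 100 codons, were chosen after the data were seen. Amino acid sequences were not used here. A gene and a sequence that the rule takes are not reported here, though the gene stays in the counts and medians.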

Additional observations from a re-analysis of the deposited data

How the results depend on the processing

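No core spliceosome gene called by limma or treat changed direction under any alternative. LSM14B, which was not called, changed sign in 4. With a pseudocount of 0.1 on the log2 scale 832 genes lay more than 2-fold below the median in place of 1476, 0 core spliceosome genes in place of 1 (PRPF39), and the group's median was 2.07 in place of 2.301. With 0.001 it was 2.328, and centred at the mean of the log2 values, which moves all genes by -0.166, it was 2.135. In the 2-fold test LSM4 and PRPF4B were not called with a pseudocount of 0.1 (adjusted p by treat of 1 and 0.082) or centred at the mean (1 and 0.0729), nor was LSM4 among genes with a mean of at least 0.05 (0.0661), and the call of SNRPA above the median was lost centred at the mean (0.478), where PRPF18 was called below it (0.00343), as it was among genes with a mean of at least 0.05 (0.0477). With the 5792 genes that share under 5%, 17 of 21 core spliceosome genes lay above the median, 12 more than 2-fold above and 0 below (PRPF39, adjusted p by treat of 0.0506), the median was 1.507, and 1190 and 958 genes were called. Fewer genes were tested there and the centre was the median of those genes, and with the centre of all genes the same 5792 gave 1087 and 1127 and a core spliceosome median of 1.387. Centred at the mean, 1660 genes lay more than 2-fold above and 1796 below, in place of 1889 and 1476.

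Without any 1 replicate, 35 to 36 core spliceosome genes lay above the median, 2 below, 27 more than 2-fold above and 1 below, with medians of 2.306 to 2.319. With the replicate block, the median of each replicate removed from its own values, these numbers were 36, 2, 28 and 1 with a median of 2.302, and no call of a core spliceosome gene changed.

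The median occupancy of 0.078 became 0.0796 without the 15 codons next to start and stop, 0.0206 as a median over codons and 0.0703 with a CDS over 300 nt. The median ratio of 1.26 became 1.292 without those codons, 1.511 from medians over codons and 1.049 with a CDS over 600 nt. These values carry no replicate error.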
